A study of Mus musculus with 4 samples.

Results

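Transcripts that mark tissue macrophages and the presentation of antigen were followed in sorted male germ cells. The set held 9 genes, chosen by symbol from the 23980 genes of the table: Cd68, Csf1r, Lyz2, C1qa, C1qb, C1qc, Cd74, H2-Aa and H2-Ab1. The choice rested on the known roles of these genes and not on a threshold of expression. All 9 were found in all 4 libraries, none of the 36 values was marked as failed by the authors' tool, and all 9 entered each fit described here.

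The libraries were made from polyA(+) RNA of leptotene/zygotene (L/Z) spermatocytes, which are germ cells in early meiotic prophase, sorted by fluorescence-activated cell sorting (FACS) from mice of 3 to 4 weeks. All animals were F1 hybrids between C57BL6/J and MSM/Ms. One library came from each genotype: Pld6 WT, Pld6 KO, Dnmt3L heterozygote (Het) and Dnmt3L KO. Pld6 encodes a nuclease of the piRNA pathway and Dnmt3l a cofactor of de novo DNA methylation in male germ cells. The study asked what each pathway adds to the silencing of retrotransposons as these cells develop. It also asked how the loss of either gene alters expression of genes near retrotransposons, in part with F1 hybrids. The WT and the heterozygote served as controls, so the control of the Dnmt3L line still carried 1 mutant allele. No group had a second library, the labels do not say how many animals went into a sort, and no difference between 2 libraries below has a replicate check.

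Macrophages of the testis live in the interstitium around the Leydig cells and vessels and on the outer surface of the seminiferous tubules, outside the epithelium that holds the spermatocytes. They depend on signalling through the CSF1 receptor, clear dying cells and debris with the help of lysosomal enzymes and complement C1q, and in part present peptides on MHC class II. B cells and dendritic cells also make class II molecules and their invariant chain, so these transcripts do not mark macrophages alone. Sertoli cells, which engulf dying germ cells, share some receptors with macrophages.

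Transcripts of all 9 genes were present in every library, although the libraries were labelled as purified spermatocytes. Their summed level was lowest in Pld6 WT, at 42.1 FPKM (fragments scaled to transcript length and library depth). It was 131 FPKM in Dnmt3L Het, 218 in Dnmt3L KO and 96.6 in Pld6 KO. These sums rested on 1753 fragments in Pld6 WT, 8182 in Dnmt3L Het, 10435 in Dnmt3L KO and 3354 in Pld6 KO. In each line the mutant library therefore held more of these transcripts than its own control, and the Dnmt3L control held more than the Pld6 mutant. For 8 of the 9 genes Pld6 WT was the lowest and Dnmt3L KO the highest of the 4 libraries, while 17.9% of the 14416 genes with a mean FPKM of at least 1 had that order and 27% had their lowest level in Pld6 WT. The exception was H2-Ab1, which was lower in each mutant than in either control, an order whose share among all genes was not computed. In bulk RNA, fewer cells of a type and less RNA per cell cannot be told apart.

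**Figure D1:**
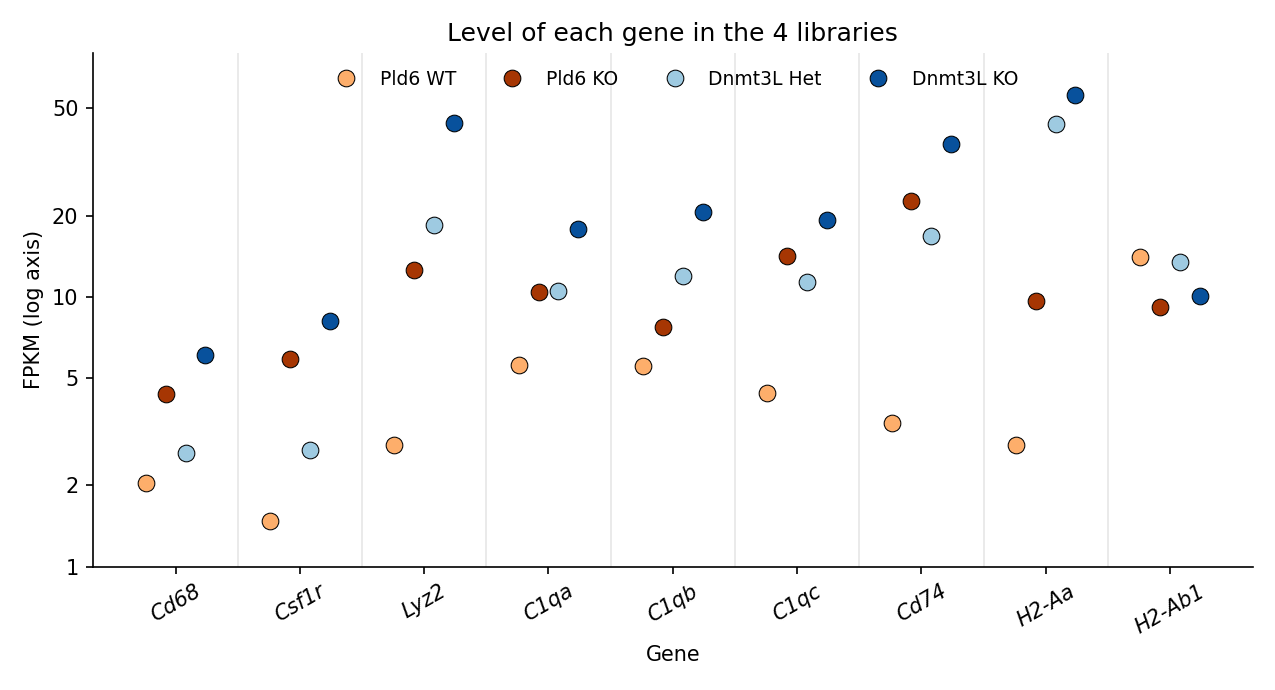
FPKM (log axis) of each of the 9 genes in Pld6 WT, Pld6 KO, Dnmt3L Het and Dnmt3L KO, 1 point per library and no error bars because each genotype had 1 library. Pld6 WT was lowest and Dnmt3L KO highest for every gene except H2-Ab1, whose 4 values lay between 9.17 and 14.0.

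Markers of the labelled germ cells were abundant, and markers of somatic cells were present beside them. All 10 L/Z spermatocyte markers were expressed, with a median of 74.5 FPKM in Dnmt3L Het, 58.4 in Dnmt3L KO, 175 in Pld6 WT and 114 in Pld6 KO. Median levels of 10 Sertoli cell markers were 58.7 and 88.7 FPKM in the Dnmt3L Het and KO libraries and 3.08 and 7.00 in the Pld6 WT and KO libraries. All 10 were higher in the Dnmt3L line in the test between lines described below, against 9.07% of all genes tested. The 4 libraries held between 30439943 (Pld6 KO) and 63875934 (Dnmt3L Het) fragments in genes, with 95% exact Poisson intervals on the counts that cover counting error only.

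Upstream sequence is shown for 3 of the genes, to set the class II gene with the largest difference between libraries (H2-Aa) beside a lysosomal and a complement gene (Cd68 and C1qb). Of the 9 genes, 5 had a window in RefSeq's promoter table for GRCm38.p6. Each sequence below is the 150 bases upstream of the annotated start, read 5′ to 3′ on the minus strand, on which all 3 genes lie. Capitals mark CCAAT or its reverse complement ATTGG (the core of the Y box of class II promoters), TGACGT or ACGTCA (the core of a cyclic AMP response element, part of the X2 box), and GAGGAA or TTCCTC (the core bound by PU.1, the myeloid transcription factor encoded by Spi1).
H2-Aa, chr17:34287824-34287973: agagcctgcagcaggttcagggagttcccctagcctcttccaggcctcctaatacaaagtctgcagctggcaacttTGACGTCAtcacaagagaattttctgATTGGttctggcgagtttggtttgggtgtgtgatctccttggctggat
Cd68, chr11:69666171-69666320: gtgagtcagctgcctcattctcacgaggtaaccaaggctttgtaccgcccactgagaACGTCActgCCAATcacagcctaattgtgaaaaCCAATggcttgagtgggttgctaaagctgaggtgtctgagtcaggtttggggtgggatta
C1qb, chr4:136886201-136886350: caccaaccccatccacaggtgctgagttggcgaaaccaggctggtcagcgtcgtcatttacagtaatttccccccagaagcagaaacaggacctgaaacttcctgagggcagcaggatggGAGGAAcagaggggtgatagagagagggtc

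In the H2-Aa window the TGACGT motif was matched on both strands, at positions -74 and -72 from the start, because the 2 matches overlap in the palindrome TGACGTCA. An ATTGG followed at -48. Cd68 held ACGTCA at -93 and CCAAT at -84 and -60, with another CCAAT at -230 and a PU.1 core at -225 beyond the stretch shown. C1qb held a PU.1 core at -30 and C1qc, which is not shown, held one at -193, whereas the Lyz2 window held none of the motifs. The gamma interferon activation motif TTCNNNGAA was found in none of the 5 windows. Over the 250 bases upstream of 32851 RefSeq starts, searched on both strands, CCAAT was present in 33.8%, TGACGT in 6.47%, GAGGAA in 23.3% and TTCNNNGAA in 7.02%. These matches describe letters in the windows and were not tested against the values.

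Csf1r encodes the receptor for CSF1 and IL-34, on which tissue macrophages depend for survival. Its level was 1.47 FPKM (220 fragments) in Pld6 WT, 5.88 (685 fragments) in Pld6 KO, 2.72 (648 fragments) in Dnmt3L Het and 8.12 (1414 fragments) in Dnmt3L KO. Both mutants lay above both controls. With fragments scaled to library depth, the mutant held 4.15 times the control in the Pld6 line (95% exact counting interval 3.56 to 4.85) and 2.79 times in the Dnmt3L line (2.54 to 3.07). In the fit with line as a term, in which both mutants are compared with both controls within their lines, Csf1r rose by 1.76 ± 0.36 on the log2 scale (SE), with an adjusted p of 0.0298 in edgeR's quasi-likelihood test. It was the 1 gene of the 9 to rise in that test, while 0.741% of the 17686 genes tested rose. None of the 9 fell in it, against 5.98% of the genes tested (0 of the 9 also at an unadjusted p under 0.05 and in DESeq2). The call was lost without the line term, at a log2 difference of 1.72 (adjusted p = 0.350 in edgeR, against 0.0178 to 0.0343 under the edgeR alternatives that kept the term). Csf1r overlaps a gene on the opposite strand, Hmgxb3, and whether the authors counted reads by strand is not given in the sources used here.

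Cd68 encodes a membrane glycoprotein of the endosomes and lysosomes of macrophages, and lies at chr11:69664213-69666170 (GRCm38.p6). Its level was low throughout, at 2.04 FPKM in Pld6 WT, 4.38 in Pld6 KO, 2.64 in Dnmt3L Het and 6.10 in Dnmt3L KO, on 77, 145, 179 and 290 fragments. Both mutants lay above both controls, as for Csf1r. Scaled to depth, the mutant held 2.51 times its control in the Pld6 line (95% interval 1.89 to 3.35) and 2.07 times in the Dnmt3L line (1.71 to 2.51). The difference between the mutants was within counting error, at 1.22 times (0.995 to 1.499). The log2 difference of mutants from controls, 1.18 ± 0.59 (SE), did not pass edgeR's test with the line term (adjusted p = 0.338).

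Lyz2 encodes lysozyme M, a bacteriolytic enzyme of macrophages and neutrophils, and lies at chr10:117277541-117282272 (GRCm38.p6). It was measured at 2.82 FPKM (98 fragments) in Pld6 WT, 12.6 (341 fragments) in Pld6 KO, 18.4 (1021 fragments) in Dnmt3L Het and 43.8 (1777 fragments) in Dnmt3L KO. Here the order was first by line and then by genotype, since both Dnmt3L-line libraries lay above both Pld6-line libraries. The mutant held 4.63 times the depth-scaled fragments of its control in the Pld6 line (3.69 to 5.86) and 2.23 times in the Dnmt3L line (2.06 to 2.41), while the 2 controls differed by 6.61 times (5.37 to 8.22). Between lines Lyz2 was higher in the Dnmt3L line by 2.25 ± 0.39 on the log2 scale (SE), with an adjusted p of 0.0132 in edgeR. Between mutants and controls its log2 difference was 1.66 ± 0.39 and missed the threshold (adjusted p = 0.0508). The value passed without the filter on low counts (0.0324), the range over the edgeR alternatives with the line term was 0.0324 to 0.0585, and in DESeq2 the adjusted p was 0.00464. Its near-identical neighbour Lyz1, with which reads of Lyz2 can be shared, stood at 2.08, 7.21, 5.22 and 10.2 FPKM in Pld6 WT, Pld6 KO, Dnmt3L Het and Dnmt3L KO.

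C1qa, C1qb and C1qc encode the chains of C1q, the recognition part of the first complement component, which in most tissues is made mainly by macrophages. The genes lie side by side within 18.7 kb of chromosome 4 (C1qb at chr4:136880126-136886200, C1qc at chr4:136889801-136892936 and C1qa at chr4:136895916-136898844, GRCm38.p6). C1qa stood at 5.61 FPKM in Pld6 WT, 10.4 in Pld6 KO, 10.5 in Dnmt3L Het and 17.8 in Dnmt3L KO. C1qb stood at 5.54, 7.74, 11.9 and 20.6 FPKM in the same order. C1qc stood at 4.41, 14.1, 11.3 and 19.2 FPKM. The 12 values rested on 153 to 841 fragments each. Pld6 WT was lowest and Dnmt3L KO highest for all 3, and of the 3 only C1qc had a higher FPKM in Pld6 KO than in the heterozygote.

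Within the Dnmt3L line the 3 C1q genes differed by nearly the same factor. Scaled to depth, Dnmt3L KO held 1.58 times the heterozygote for C1qa (1.42 to 1.76), 1.62 times for C1qb (1.46 to 1.79) and 1.59 times for C1qc (1.43 to 1.76). In the Pld6 line the factors were 1.92 (1.60 to 2.31), 1.45 (1.19 to 1.77) and 3.33 (2.75 to 4.04), and the interval of C1qc did not meet those of the others. The ratio of C1qc to C1qb, both as FPKM, was accordingly 0.9503 (0.851 to 1.06) in Dnmt3L Het, 0.933 (0.845 to 1.03) in Dnmt3L KO and 0.796 (0.640 to 0.989) in Pld6 WT, against 1.83 (1.54 to 2.17) in Pld6 KO. These intervals cover counting error and not the spread between animals. None of the 3 genes passed the edgeR test between mutants and controls, with log2 differences of 0.79 ± 0.42 for C1qa (adjusted p = 0.365), 0.61 ± 0.42 for C1qb (0.506) and 1.19 ± 0.45 for C1qc (0.201).

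Cd74 encodes the invariant chain, which escorts newly made class II molecules to the endosome. Its FPKM was 3.41 in Pld6 WT (144 fragments), 22.7 in Pld6 KO (747 fragments), 16.7 in Dnmt3L Het (1125 fragments) and 36.7 in Dnmt3L KO (1825 fragments). Both mutants lay above both controls. In the Pld6 line the mutant held 6.91 times the depth-scaled fragments of its control (5.77 to 8.32), the largest own-line factor among the 9 genes, and in the Dnmt3L line 2.08 times (1.93 to 2.24). The log2 difference of 1.90 ± 0.45 between mutants and controls had an adjusted p of 0.0529 in edgeR, which missed the threshold. Over the edgeR alternatives with the line term the adjusted p ran from 0.0270 (no filter on low counts) to 0.0640, and in DESeq2 it was 0.00936.

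H2-Aa and H2-Ab1 encode the alpha and the beta chain of the class II molecule I-A, which pair to form 1 heterodimer. They are neighbours on chromosome 17, with 13.3 kb between H2-Ab1 (chr17:34263227-34269418) and H2-Aa (chr17:34282744-34287823). Their levels did not move together. H2-Aa stood at 2.83 FPKM (100 fragments) in Pld6 WT, 9.64 (265 fragments) in Pld6 KO, 43.5 (2448 fragments) in Dnmt3L Het and 55.8 (2294 fragments) in Dnmt3L KO. H2-Ab1 stood at 14.0 (566 fragments), 9.17 (288 fragments), 13.5 (866 fragments) and 10.1 FPKM (473 fragments) in the same order. The ratio of H2-Aa to H2-Ab1 ran from 0.202 (0.162 to 0.250) in Pld6 WT and 1.05 (0.887 to 1.25) in Pld6 KO to 3.23 (2.99 to 3.50) in Dnmt3L Het and 5.54 (5.02 to 6.13) in Dnmt3L KO.

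For H2-Aa the larger difference was between lines. The controls differed by 15.5 times in depth-scaled fragments (12.7 to 19.2), more than for any other of the 9 genes, and the Dnmt3L line was higher by 3.22 ± 0.43 on the log2 scale (SE, adjusted p = 0.00422 in edgeR). H2-Aa and Lyz2 were the 2 of 9 genes that passed between lines, where 9.07% of the genes tested were higher in the Dnmt3L line. None of the 9 was lower in it, against 2.09% (0 also at an unadjusted p under 0.05 and in DESeq2). Between mutant and control H2-Aa differed by 3.53 times in the Pld6 line (2.79 to 4.49) and by 1.20 times in the Dnmt3L line (1.13 to 1.27), and the common difference of 2.01 times (SE 0.40 on the log2 scale) did not pass (adjusted p = 0.229). For H2-Ab1 the log2 difference between lines was 0.039 ± 0.39 (adjusted p = 0.967 in edgeR), with 9.17 to 14.0 FPKM in all libraries and a factor of 0.971 (0.872 to 1.08) between the controls. The log2 difference of H2-Ab1 between mutants and controls, -0.55 ± 0.39, did not pass (adjusted p = 0.522 in edgeR). H2 genes are highly polymorphic, and the build named for these libraries, mm10, is that of C57BL6/J, whereas 1 parent was MSM/Ms. How far this affects the counts of H2-Aa and H2-Ab1 was not tested.

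**Figure D2:**
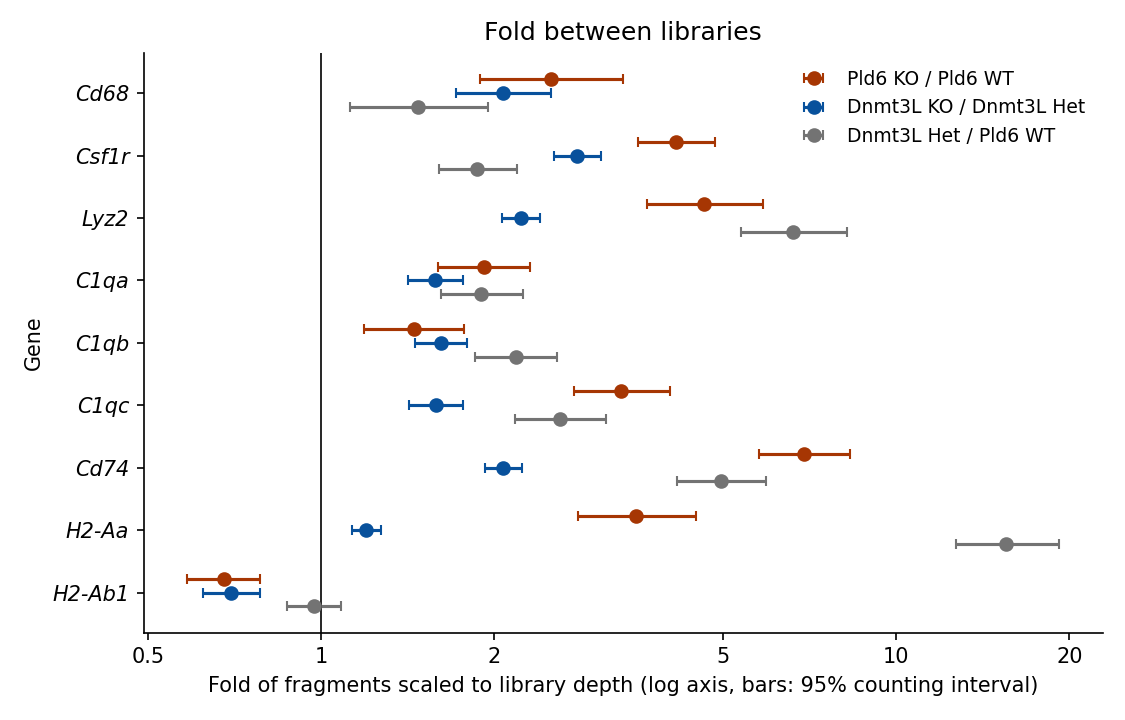
Fold of depth-scaled fragments for each gene (log axis) in Pld6 KO over Pld6 WT, Dnmt3L KO over Dnmt3L Het and Dnmt3L Het over Pld6 WT; points are single comparisons of 1 library with 1 library and bars are 95% exact counting intervals. H2-Aa is at 15.5 between the controls and 1.20 in the Dnmt3L line, and H2-Ab1 lies below 1 in both mutants.

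Set side by side, the own-line changes had the larger median in the Pld6 line, and the difference between lines was not tested. The rise of C1qb was smaller there and, by FPKM + 1, H2-Ab1 fell further there. In depth-scaled fragments the 2 falls of H2-Ab1 were alike within counting error. The factors were 0.678 (0.586 to 0.782) in the Pld6 line and 0.699 (0.623 to 0.782) in the Dnmt3L line. Cd68 depended on the scale, with a smaller rise there by FPKM but a larger one in depth-scaled fragments (2.51 against 2.07 times). On the log2(FPKM + 1) scale, which understates changes of low genes, the median over the 9 genes was 1.47 for Pld6 KO against Pld6 WT (range -0.56 to 2.43) and 0.74 for Dnmt3L KO against Dnmt3L Het (range -0.39 to 1.29). Over all genes with a mean FPKM of at least 1 these medians were 0.0067 and 0.063. The 2 controls also differed, by a median of 0.98 in favour of the heterozygote (range -0.055 to 3.54). By FPKM + 1, the scale of all such counts here, 5 of 9 genes were more than 2-fold higher in the mutant in the Pld6 line (Csf1r, Lyz2, C1qc, Cd74 and H2-Aa), against 7.41% of all expressed genes, and 3 of 9 in the Dnmt3L line (Csf1r, Lyz2 and Cd74), against 4.61%. Csf1r, Lyz2 and Cd74 were so in both lines, against 0.825% of all expressed genes. Cd68 stayed under that threshold because 1 was added to low values, since its plain FPKM ratios were 2.15 and 2.31. None of the 9 was more than 2-fold lower in the mutant, against 9.95% of expressed genes in the Pld6 line and 12% in the Dnmt3L line, or in the heterozygote than in Pld6 WT (6.1%). On the same scale the heterozygote exceeded Pld6 WT by more than 2-fold for 4 of 9 genes (Lyz2, C1qc, Cd74 and H2-Aa), against 17.6%, and C1qb lay just under it with a plain FPKM ratio of 2.15.

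Measured against both controls at once, fewer genes stood out. By FPKM + 1, Pld6 KO exceeded both controls by more than 2-fold for 0 of 9 genes (1.51% of expressed genes; 1 of 9, Csf1r, with 0.1 added in place of 1), and Dnmt3L KO did so for Csf1r, Lyz2 and Cd74 (3.29%). Without the heterozygote these counts were 5 and 8. The 8 set Dnmt3L KO against Pld6 WT alone, so line and genotype are mixed in it, and its share of all genes was not computed. More than 2-fold below both controls were 0 of 9 in either mutant (8.57% and 9.16% of expressed genes for Pld6 KO and Dnmt3L KO). Both mutants lay above both controls for 4 of 9 genes (Cd68, Csf1r, C1qc and Cd74), against 13.6%. Both Dnmt3L-line libraries lay above both Pld6-line libraries for the other 4 that followed the common order (Lyz2, C1qa, C1qb and H2-Aa), against 26.1%.

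With the 2 controls as 1 group and each mutant on its own, edgeR called none of the 9 genes. At an unadjusted p under 0.05 it would have called 0 of 9 in Pld6 KO and 1 (Csf1r) in Dnmt3L KO, and DESeq2 called 0 in either. Among the 9, Csf1r had the smallest adjusted p in each comparison (0.817 for Pld6 KO, 0.529 for Dnmt3L KO). The share of all 18657 genes called higher in edgeR was 0% for either mutant, with 102 and 203 genes at an unadjusted p under 0.05. The spread in that fit came from the difference of the 2 controls, which is also a difference of line.

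**Figure D3:**
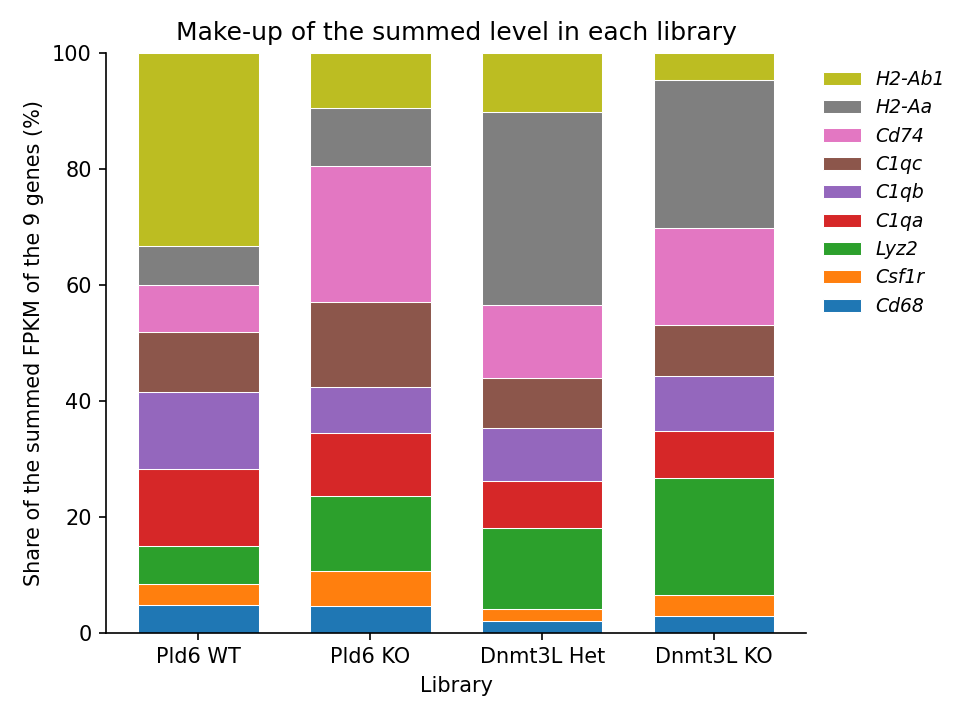
Share (%) of the summed FPKM of the 9 genes contributed by each gene in the 4 libraries. H2-Ab1 made up 33.3% in Pld6 WT and 4.61% in Dnmt3L KO, while H2-Aa made up 6.72% and 25.6%.

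The make-up of the set also differed. H2-Ab1 contributed 33.3% of the summed FPKM of the 9 genes in Pld6 WT and was the most abundant of them there, against 9.49% in Pld6 KO, 10.3% in Dnmt3L Het and 4.61% in Dnmt3L KO. Cd74 led in Pld6 KO with 23.5%. H2-Aa led in Dnmt3L Het with 33.1% and in Dnmt3L KO with 25.6%. Csf1r and Cd68, the 2 genes nearest to a general macrophage identity, contributed between 2.01% and 6.09% in every library.

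Other macrophage markers were mostly low. Of 14 such genes outside the set, 8 had a mean FPKM of at least 1. The summed level of the 14 was 23.2 FPKM in Pld6 WT, 26.6 in Pld6 KO, 113 in Dnmt3L Het and 99.7 in Dnmt3L KO, so that the heterozygote was highest. Without Aif1, a choice made after seeing the data, the sum of the other 13 was 13.0 FPKM in Pld6 WT, 26.1 in Pld6 KO, 54.6 in Dnmt3L Het and 95.7 in Dnmt3L KO, which is the order of the summed 9 genes. Aif1 stood apart at 10.2, 0.563, 58.5 and 3.98 FPKM, fell in the mutants in edgeR's line-term fit (log2 -4.03, adjusted p = 0.00253) and followed the order of the 8 spermatid markers, whose sums were 144, 10.6, 6930 and 27.3 FPKM. The study's sorting profiles showed spermatids in WT testes and no germ cells past zygotene in testes of either mutant. How far this bears on the libraries compared here was not tested. Adgre1 (listed as Emr1), which encodes the surface antigen F4/80, stood at 0.339 FPKM in Pld6 WT, 0.912 in Pld6 KO, 0.865 in Dnmt3L Het and 2.47 in Dnmt3L KO. Mrc1, the mannose receptor, stood at 1.13, 4.95, 14.3 and 18.9 FPKM in that order and was higher in the Dnmt3L line by 2.78 on the log2 scale (adjusted p = 0.00839 in edgeR). Cd163, the haemoglobin scavenger receptor of resident macrophages, was at 0 in Pld6 WT and reached 0.702 FPKM in Dnmt3L KO. Itgam stayed at or below 0.631 FPKM, Cx3cr1 lay between 0.629 and 1.42 and Fcgr1 between 0.0661 and 1.26. Tyrobp, an adaptor of myeloid receptors, went against the Pld6-line pattern, with 3.38 FPKM in Pld6 WT and 1.56 in Pld6 KO beside 9.65 and 14.0 in the Dnmt3L Het and KO libraries. Msr1, a scavenger receptor named after its values were seen, stood at 0.708 and 0.0997 FPKM in Pld6 WT and KO and at 0.966 and 0.650 in Dnmt3L Het and KO. Of the 14, Mertk (named after its values were seen), a receptor for dying cells that Sertoli cells also express, was the 1 to rise in the mutants (log2 1.63, adjusted p = 0.0318 in edgeR), and Aif1 was the 1 to fall. Over all genes tested in that fit, 0.741% rose and 5.98% fell.

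Ligands and regulators of the receptor were compared next. Over all genes tested between mutants and controls in edgeR's line-term fit, 0.741% rose and 5.98% fell. Of 8 genes of the CSF1 axis, Csf1r, itself a member of the set, was the 1 that passed that test. Csf1, its main ligand, stood at 1.19 FPKM in Pld6 WT, 6.52 in Pld6 KO, 5.22 in Dnmt3L Het and 4.16 in Dnmt3L KO. Il34, the second ligand, lay between 0.287 and 0.738 FPKM. Spi1, which encodes PU.1, lay between 0.456 and 1.20 FPKM, highest in Pld6 KO. The white blood cell marker Ptprc (CD45) was low, at 0.232 FPKM in Pld6 WT, 1.13 in Pld6 KO, 0.0867 in Dnmt3L Het and 0.836 in Dnmt3L KO, and 0 of 8 genes of that list passed edgeR's line-term test between mutants and controls, with 1 higher at an unadjusted p under 0.05 and 1 (Ptprc) higher in DESeq2.

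The genes of the class II pathway did not share 1 order. Of its 13 genes, 3 belong to the set and 11 were tested. Between mutants and controls 0 passed in edgeR, with 3 higher at an unadjusted p under 0.05 and 1 (Cd74) higher in DESeq2. In edgeR 0.741% of all genes tested rose there and 5.98% fell. In edgeR 2 of the 11 were higher in the Dnmt3L line, beside 9.07% of all genes tested. They were H2-Aa and Lgmn (adjusted p = 0.0108 in edgeR), the latter named after its values were seen. The list's median log2 change was 0.62 in the Pld6 line and 0.17 in the Dnmt3L line. H2-Eb1, the beta chain of the class II molecule I-E, stood at 0.452 FPKM in Pld6 WT, 1.23 in Pld6 KO, 2.46 in Dnmt3L Het and 6.24 in Dnmt3L KO, the order of H2-Aa and not of H2-Ab1. H2-DMa, a chain of the peptide editor H2-DM, lay between 3.17 and 5.80 FPKM, and Ifi30, a thiol reductase of the endosome, stood at 49.8, 69.9, 39.0 and 33.2 FPKM in Pld6 WT, Pld6 KO, Dnmt3L Het and Dnmt3L KO. Ciita, the regulator that class II genes need in most cells, was at or near 0, with 0 FPKM in Pld6 KO and at most 0.121 FPKM elsewhere. H2-Ab1, at 9.17 FPKM or more, was read in all 4 libraries.

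Class I genes, which most cells express, gave another pattern. H2-K1 stood at 162 FPKM in Pld6 WT, 111 in Pld6 KO, 93.1 in Dnmt3L Het and 67.7 in Dnmt3L KO, and H2-D1 at 109, 65.9, 73.4 and 43.4. Both heavy chains had their highest level in Pld6 WT, where 8 of the 9 genes were lowest. Their light chain B2m stood at 42.5, 79.0, 120 and 145 FPKM, with the lowest and the highest library shared with the 8 genes. The ratio of B2m to H2-K1 ran from 0.263 (0.247 to 0.280) in Pld6 WT to 2.14 (2.06 to 2.23) in Dnmt3L KO. Of the 14 genes of the list, 0 passed between mutants and controls in edgeR, where 0.741% of all genes tested rose and 5.98% fell. At an unadjusted p under 0.05, 2 were higher and 1 lower, while DESeq2 called 1 higher (Erap1) and 1 lower (H2-D1). Between lines edgeR found 2 of the 14 (B2m and Tapbp) higher in the Dnmt3L line, beside 9.07% of all genes tested, and 0 lower, with 2 lower (H2-K1 and H2-D1) at an unadjusted p under 0.05 and 1 (H2-K1) lower in DESeq2. Erap1 and Tapbp were named after their values were seen.

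Among 14 complement genes, 0 of the 13 tested passed between mutants and controls in edgeR, where 0.741% of all genes tested rose and 5.98% fell. At an unadjusted p under 0.05, 4 were higher, and 2 (C1s1 and C2) were higher in DESeq2. C2, named after its values were seen, was the 1 of 13 that edgeR found higher in the Dnmt3L line, a share near the 9.07% of all genes tested. C1ra and C1s1, which encode the proteases that C1q activates, stood at 1.38 and 3.81 FPKM in Pld6 WT, 10.6 and 17.9 in Pld6 KO, 11.4 and 17.0 in Dnmt3L Het and 12.7 and 24.8 in Dnmt3L KO. They shared with the C1q genes the lowest level in Pld6 WT. C3, the central component, stood at 0.861, 2.57, 0.406 and 0.492 FPKM in Pld6 WT, Pld6 KO, Dnmt3L Het and Dnmt3L KO, and C4b lay between 0.918 and 1.07. Of the 11 genes of the lysosome list, Lyz2 was the 1 that passed, between lines, a share near the 9.07% of all genes tested.

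**Figure D4:**
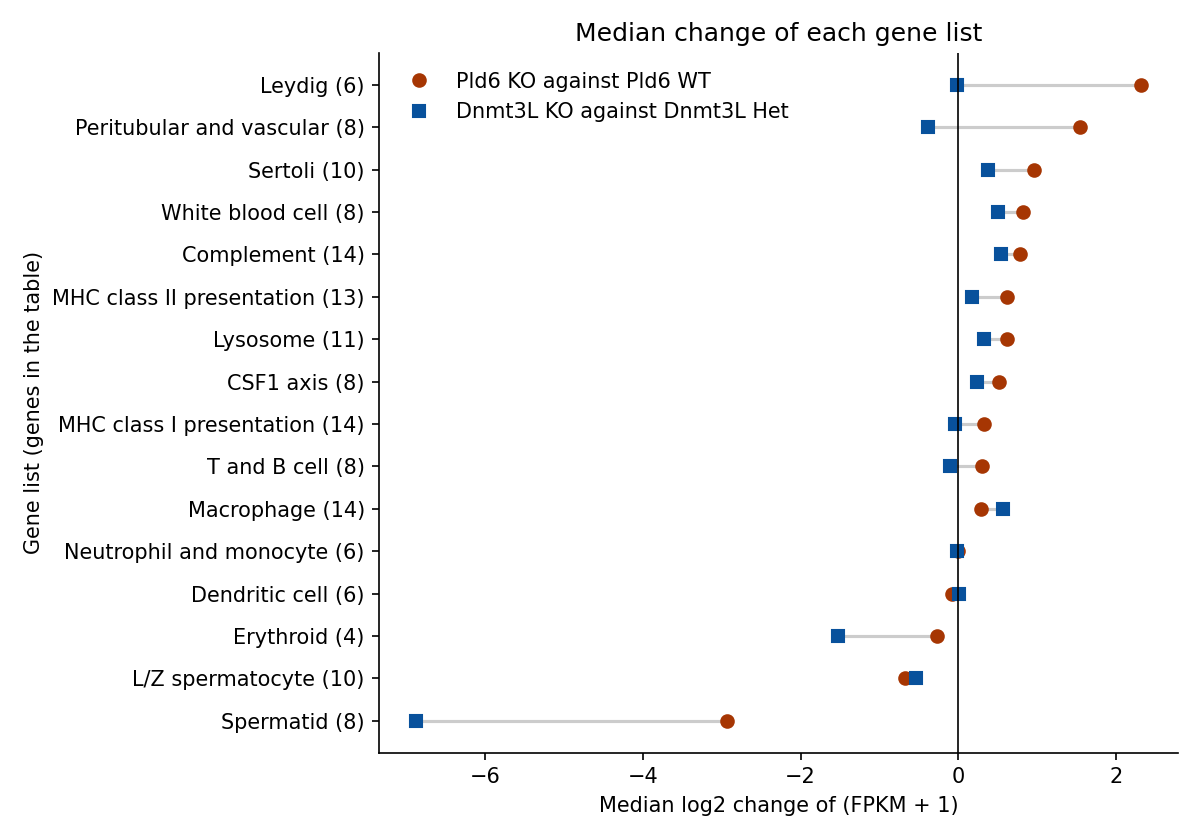
Median change of log2(FPKM + 1) for 16 gene lists, Pld6 KO against Pld6 WT and Dnmt3L KO against Dnmt3L Het; the number of genes in each list is in parentheses. The Leydig and the peritubular and vascular list are at 2.32 and 1.54 in the Pld6 line and at -0.018 and -0.38 in the Dnmt3L line, whereas the macrophage list is at 0.29 and 0.57.

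Markers of other cells also differed between the libraries, and not all in the order of the 9 genes. Summed over 10 Sertoli genes the level was 113 FPKM in Pld6 WT, 288 in Pld6 KO, 3104 in Dnmt3L Het and 4410 in Dnmt3L KO, the order of the summed level of the 9 genes. For 6 Leydig genes the sums were 24.9, 220, 326 and 316 FPKM, and for 8 peritubular and vascular genes 107, 484, 464 and 278, with all 6 and all 8 higher in Pld6 KO than in Pld6 WT. In the Dnmt3L line, where the sum of the 9 genes was higher in the mutant, these 2 sums were not. Of the Leydig genes, Star (log2 1.81, adjusted p = 0.0194) and Lhcgr (2.87, 0.0436), named after their values were seen, rose in the mutants in the same edgeR fit as Csf1r. In that fit 0.741% of all genes tested rose. The other Leydig genes, Cyp11a1, Cyp17a1, Hsd3b1 and Insl3, did not pass (adjusted p = 0.361, 0.511, 0.394 and 0.311). Their FPKM was 38.4, 43.0, 37.6 and 202 in Dnmt3L Het against 34.6, 28.5, 37.3 and 198 in Dnmt3L KO. Summed L/Z spermatocyte genes were highest in Pld6 WT (2239 FPKM) and lower in Pld6 KO (1335), Dnmt3L Het (1390) and Dnmt3L KO (840). T and B cell genes, of which 8 of 9 were in the table, summed to 8.96, 16.9, 9.85 and 3.99 FPKM in Pld6 WT, Pld6 KO, Dnmt3L Het and Dnmt3L KO. Within that list the B cell genes Cd79a and Cd79b (named after their values were seen) reached 7.88 and 3.52 FPKM in Pld6 KO and at most 0.742 and 0.254 elsewhere, in the library where Cd74 led the set, while the T cell gene Cd3e stood at 6.89 FPKM in Pld6 WT, 3.04 in Pld6 KO, 7.59 in Dnmt3L Het and 2.96 in Dnmt3L KO and Cd8a was at 0 in 3 libraries. Erythroid genes summed to 17.1, 13.1, 490 and 104 FPKM in Pld6 WT, Pld6 KO, Dnmt3L Het and Dnmt3L KO. All 3 of them that were tested were higher in the Dnmt3L line in edgeR, against 9.07% of all genes tested. Dendritic cell genes summed to between 4.48 and 8.64 FPKM, with Itgax at or below 0.713. Ly6c2, a monocyte gene, lay between 1.64 and 4.58 FPKM, and the neutrophil genes S100a8 and S100a9 were at 0 in all 4 libraries, where a count of 0 allows up to 3 fragments (a one-sided 95% limit on counting error). The part that Sertoli, Leydig, vascular, erythroid or B cell RNA had in the differences of the 9 genes was not tested.

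The genes whose course over the 4 libraries was most like the mean course of the 9 were Igbp1, Igsf23, Fads1, B4galt1, Nfia, Tpp1, St3gal2, Tiam1, Akap2 and Ctdspl. Likeness was the distance between log2(FPKM + 1) profiles, each centred on its own mean, and ran from 0.075 for Igbp1 to 0.165 for Ctdspl over 4 libraries. Igbp1 stood at 7.63 FPKM in Pld6 WT, 17.2 in Pld6 KO, 20.8 in Dnmt3L Het and 33.6 in Dnmt3L KO. The 9 genes themselves lay farther from their own mean course, between 0.392 for C1qc and 1.91 for H2-Aa, with H2-Ab1 at 1.79. With a pseudocount of 0.1 FPKM, 3 of the 10 were named again.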

How the data were processed

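RNA of 4 libraries was sequenced by the authors as 50 bp single-end reads from a stranded polyA(+) kit. Per the labels' processing notes, TopHat (TopHat2 in the study's methods) and Cuffdiff were used with build mm10; further version numbers, and whether counting used strand, are not given in the sources used here. The deposited table held, for 23980 genes, an estimated count of fragments before scaling (97.3% to 97.4% whole numbers) and FPKM, which the authors' tool scaled to gene length and depth. The 4 libraries held 30439943 to 63875934 fragments in genes. These totals exceed the number of reads that the study's methods give for L/Z libraries, it is not clear whether those methods refer to these libraries, and the intervals take each fragment as 1 independent read. No molecular identifiers were used, so counting intervals (95%, exact Poisson for counts and exact conditional for ratios) cover counting error only.

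The genes and lists were chosen with earlier results of these data known. Changes were computed as log2(FPKM + 1), and shares of all genes over 14416 genes with mean FPKM of at least 1. Estimated counts rounded to whole numbers were tested with edgeR 4.0.16 (R 4.3.3; quasi-likelihood, TMM, filterByExpr, Benjamini-Hochberg over all genes, threshold 0.05) in 2 fits: 3 groups with both controls pooled (18657 genes), and mutant against control with line as a term (17686 genes). Each left 1 residual degree of freedom. In the line-term fit that degree is the difference between the 2 lines' mutant effects, so p-values measure only the spread among these 4 libraries, which may be technical. The line-term fit was also run on simulated counts with known changes, as a check of the code and not of its error rate in these libraries. Alternatives were DESeq2 1.42.0, its size factors in edgeR, no filter, no line term, a pseudocount of 0.1, a 3-fold threshold, other scalings and each control left out.

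Genes named are the 9 of the set, 24 genes of the pathway and marker lists picked for their roles, and the 10 with the most similar profile; all others, such as Aif1, Lyz1, Cd3e, Cd8a, S100a8 and S100a9, were chosen after their values were seen. Positions and promoter windows came from RefSeq (GRCm38.p6, which shares the coordinates of mm10). Retrotransposon reads and parental alleles were not analysed here.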

Additional observations from a re-analysis of the deposited data

Results flagged for a closer look

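No member of the set changed in opposite directions in the 2 lines. Among the 16 gene lists, 5 had median changes of log2(FPKM + 1) of opposite sign, Pld6 KO against Pld6 WT and Dnmt3L KO against Dnmt3L Het, and with 1 library per genotype the difference was not tested. The Leydig list was at 2.32 and -0.018, and the peritubular and vascular list at 1.54 and -0.38. The T and B cell list was at 0.30 and -0.10, the dendritic cell list at -0.077 and 0.0055, and the class I presentation list at 0.33 and -0.036.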

How the results depend on the processing

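The direction of the median change of the 9 genes held in both lines under the other pseudocount, both other scalings and, chosen after seeing the data, without H2-Ab1 (1.48 and 0.85). It turned only with the control of the other line: the median was -0.018 for Pld6 KO against Dnmt3L Het and 1.88 for Dnmt3L KO against Pld6 WT, with Lyz2 at -0.51, C1qa at -0.018, C1qb at -0.57 and H2-Aa at -2.06 in Pld6 KO. The count of genes more than 2-fold above both controls in Pld6 KO was 1 with a pseudocount of 0.1 FPKM and 1 with TMM scaling, and ran from 0 (without Pld6 WT) to 5 (without the heterozygote); the count below both ran from 0 to 1 (without Pld6 WT). For Dnmt3L KO the count above both was 0 at 3-fold and ran from 3 (without Pld6 WT) to 8 (without the heterozygote). A mutant left without its own control is compared across lines, which mixes line with genotype. Against both controls pooled, edgeR without the filter called 8 genes higher and 429 lower in Pld6 KO and 6 and 423 in Dnmt3L KO, and DESeq2 called 15 and 949, and 17 and 925. With the line term, genes higher in the mutants numbered 224 without the filter and 575 in DESeq2, with 3 of the 9 in each, while without the line term 0 genes were called higher, 0 lower and 0 of the 9; genes lower in the Dnmt3L line numbered 1036 in DESeq2. Cd74 passed between lines in DESeq2 (log2 1.503, adjusted p = 0.0436), against 0.0540 to 0.0883 under the edgeR alternatives. The cause of these shifts was not tested. With the smaller pseudocount 3 of the 10 most similar genes were named again. The macrophage list without Aif1, chosen after seeing the data, was at 0.30 and 0.61.

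No paired analysis was possible because each genotype had 1 library and the labels carry no replicate numbers, beyond the line term, which sets each mutant against the control of its line. Leaving out a library from the line-term fit would leave 0 residual degrees of freedom and was not run. Each genotype had 1 library and the controls differ in line, so genotype, animal and sort cannot be told apart for any single mutant. Depth limits Cd68 most, with 77 fragments in Pld6 WT.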
